A study of Homo sapiens with 18 samples.

Results

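The genes described here are the 10 histone H3 lysine 9 (H3K9) demethylase genes of the KDM3, KDM4 and PHF8 families: KDM3A, KDM3B and JMJD1C, KDM4A, KDM4B, KDM4C and KDM4D, and PHF8, PHF2 and JHDM1D. They were taken by gene symbol, and 10 of the 23686 genes in the tables answered to these symbols. Bulk RNA sequencing was done on 18 libraries of OCI-Ly1 and TMD8, established cell lines from human diffuse large B-cell lymphoma. Each line had 3 groups of 3 libraries: vehicle alone (0.01% DMSO), 150 nM JIB-04 and 500 nM JIB-04. The libraries of a group were prepared as technical triplicates, so the errors and p-values given here measure the spread between such libraries and may not cover the spread between cultures. OCI-Ly1 was kept in IMDM and TMD8 in RPMI medium, so line and medium cannot be told apart. The treatment time is not given in the sources used here.

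JmjC-domain demethylases remove methyl groups from lysines of histone tails by oxidation, with iron, molecular oxygen and 2-oxoglutarate. Methylated H3K9 is bound by HP1 proteins and marks heterochromatin, the compact and mostly silent part of the genome. KDM3 enzymes act on mono- and dimethylated H3K9, KDM4 enzymes act on di- and trimethylated H3K9, and enzymes of the PHF8 family read a neighbouring mark with a PHD finger and act on lower methylation states. JIB-04 is a small molecule that inhibits several JmjC demethylases. It acts on the proteins, whereas the values below are mRNA levels of their genes.

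Library totals were 17579732 to 32651115 estimated counts in OCI-Ly1 and 9550092 to 20509500 in TMD8. Depth ran with dose, in opposite ways in the lines. In OCI-Ly1 totals were 17579732 to 25545170 with DMSO and 24830313 to 32651115 at 500 nM. In TMD8 they were 16790982 to 20509500 with DMSO and 9550092 to 14803022 at 500 nM. The B-cell markers MS4A1, CD79A, CD79B, PAX5 and CD22 each had a mean over 1 TPM in every group, TPM being transcript abundance per length scaled to a fixed library total. The summed level of 5 germinal-centre markers was 173 to 188 TPM in OCI-Ly1 and 40.6 to 51.0 TPM in TMD8 with DMSO, and that of 5 activated-type markers 124 to 129 TPM and 635 to 778 TPM. The germinal-centre sum of OCI-Ly1 rested on MME, BCL6 and MYBL1, while LMO2 (0.011 TPM in OCI-Ly1 and 25.1 TPM in TMD8) and SERPINA9 (0.10 and 9.26 TPM) had higher mean levels in TMD8. At 500 nM the germinal-centre sum was 164 to 179 TPM in OCI-Ly1 and 18.8 to 20.4 TPM in TMD8, and the activated-type sum was 266 to 280 TPM in OCI-Ly1 and 376 to 429 TPM in TMD8. On the normalised counts used below for dose, 2 of 4 tested germinal-centre markers were higher in TMD8 and 2 lower (edgeR, adjusted p under 0.05). Of 5 activated-type markers 2 were higher there and 3 lower, where 29.9% of all genes were higher and 30.7% lower. In OCI-Ly1 these were 1 higher and 2 lower of 4, and 3 higher and 1 lower of 4, where 27.7% were higher and 25.9% lower. CD3D and CD3G were the 2 of 5 T-cell markers above 1 TPM in OCI-Ly1, whose T-cell sum was 27.2 to 29.8 TPM with DMSO and 12.3 to 14.2 TPM at 500 nM. The 5 myeloid markers summed to at most 1.59 TPM in any library, and MPO was at 0 in all OCI-Ly1 libraries. With DMSO the 5 epithelial markers summed to 17.1 to 19.9 TPM in OCI-Ly1 and 16.2 to 18.8 TPM in TMD8. In TMD8 the 5 fibroblast markers summed to 0.51 to 0.62 TPM with DMSO and 2.79 to 2.98 TPM at 500 nM. The 5 erythroid markers there summed to 0.41 to 0.78 TPM and 1.79 to 2.19 TPM. In OCI-Ly1 the fibroblast and erythroid sums were at most 0.37 and 0.78 TPM. The part of these marker shifts in the results below was not tested. In bulk RNA a change in every cell and a change in a part of the cells cannot be told apart.

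All 10 genes had promoter windows in RefSeq (GRCh38.p14), 15 windows in all, since some genes have several start sites. The 250 bases upstream of the start are shown for 5 of the 10 genes. Capitals mark ACGTG or GCGTG on either strand, the core bound by hypoxia-inducible factors (HIF), and TGACGTCA, the site bound by CREB and ATF factors; the E-box CACGTG contains ACGTG. These letters were looked for because KDM3A, KDM4B, KDM4C and other JmjC genes are known as HIF targets, and the search was added after the windows had been seen. Each sequence is written 5′ to 3′ on the strand of its gene.
JHDM1D (KDM7A in RefSeq; chr7:140176984-140177233, minus strand): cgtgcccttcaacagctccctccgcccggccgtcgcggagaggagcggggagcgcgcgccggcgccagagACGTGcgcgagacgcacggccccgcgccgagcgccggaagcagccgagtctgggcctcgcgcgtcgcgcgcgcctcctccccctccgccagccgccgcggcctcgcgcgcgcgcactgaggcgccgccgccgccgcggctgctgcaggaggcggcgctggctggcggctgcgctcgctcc
PHF2 (chr9:93576334-93576583, plus strand): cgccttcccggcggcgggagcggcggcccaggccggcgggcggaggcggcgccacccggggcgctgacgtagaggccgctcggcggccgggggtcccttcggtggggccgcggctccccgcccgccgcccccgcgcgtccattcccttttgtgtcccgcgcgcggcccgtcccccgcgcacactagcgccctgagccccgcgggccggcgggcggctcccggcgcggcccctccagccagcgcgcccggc
JMJD1C (window 2; chr10:63521891-63522140, minus strand): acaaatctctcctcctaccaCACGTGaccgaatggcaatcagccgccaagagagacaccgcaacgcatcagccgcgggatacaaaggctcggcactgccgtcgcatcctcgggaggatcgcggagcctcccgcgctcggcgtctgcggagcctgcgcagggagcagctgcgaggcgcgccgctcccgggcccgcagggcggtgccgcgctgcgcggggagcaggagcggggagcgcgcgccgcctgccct
KDM4C (chr9:6757723-6757972, plus strand): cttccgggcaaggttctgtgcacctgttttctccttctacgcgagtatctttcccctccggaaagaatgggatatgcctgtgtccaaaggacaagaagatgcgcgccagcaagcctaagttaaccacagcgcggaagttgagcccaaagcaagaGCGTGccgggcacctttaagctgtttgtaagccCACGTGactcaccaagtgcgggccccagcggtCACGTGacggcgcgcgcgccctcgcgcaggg
PHF8 (window 2; chrX:54044474-54044723, minus strand): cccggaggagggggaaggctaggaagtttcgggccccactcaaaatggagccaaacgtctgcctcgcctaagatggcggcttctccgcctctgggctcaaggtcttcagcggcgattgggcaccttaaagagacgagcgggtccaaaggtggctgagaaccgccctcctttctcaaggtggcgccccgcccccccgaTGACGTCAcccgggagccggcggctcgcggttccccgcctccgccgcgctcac
JHDM1D, PHF2 and PHF8 are shown because the difference between the lines' changes at 500 nM was called for them on counts, and JMJD1C and KDM4C because both were called higher at 500 nM in each line on counts. KDM4D met the first of these grounds, and KDM3A and KDM4A the second, but their windows are not shown. These grounds therefore do not fix the choice of genes. JMJD1C and PHF8 have 3 windows each, and the window shown is the sole window of its gene with marked letters. ACGTG or GCGTG was present in 6 of the 10 genes and 7 of the 15 windows, against 43.2% of all 35116 RefSeq windows. The windows of KDM3A overlap and hold the same GCGTG, so that site is counted in each of them. CACGTG was present in JMJD1C, KDM4B and KDM4C, the last holding 2 copies. This was 3 of the 15 windows, against 6.34% of all windows. TGACGTCA was present in PHF8 alone of the 10 genes, in 1 of the 15 windows, against 1.65% of all windows. TGATGCAA, an ATF4-type site, was in none of the 10 genes and in 0.772% of all windows. The shown window of PHF2 holds none of these letters. The GC content of the 15 windows ran from 43.2% to 84.8%.

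Levels can be compared between genes only per transcript length, as TPM. With DMSO, KDM3B was the highest of the 10 in both lines, at 38.0 ± 2.06 TPM for OCI-Ly1 and 23.0 ± 2.85 TPM for TMD8 (SD, n = 3). In OCI-Ly1 it was followed by JMJD1C at 29.6 ± 2.82 TPM, KDM4C at 23.6 ± 0.804 TPM, KDM4A at 23.2 ± 0.279 TPM, PHF8 at 16.8 ± 0.230 TPM and KDM3A at 14.96 ± 1.71 TPM. KDM4B, at 7.82 ± 0.108 TPM, PHF2, at 5.91 ± 0.411 TPM, JHDM1D, at 3.55 ± 0.603 TPM, and KDM4D, at 1.497 ± 0.240 TPM, made up the lower end. Neighbours whose libraries overlapped in this order were KDM4C with KDM4A and PHF8 with KDM3A. Overlap compares the ranges over libraries, although all genes were measured in the same libraries. Within each library PHF8 was above KDM3A, barely so in replicate 3 (16.86 and 16.85 TPM), while KDM4C and KDM4A changed places. In TMD8 the order was flatter: from JMJD1C (15.7 ± 2.76 TPM) through KDM3A (13.6 ± 2.20 TPM), KDM4C (11.96 ± 2.002 TPM), PHF8 (10.4 ± 1.09 TPM) and KDM4A (10.2 ± 0.9746 TPM) to KDM4B (9.59 ± 0.607 TPM), the range of each gene overlapped that of the next. Within each library, however, this order held, except that PHF8 was below KDM4A in replicate 3 (9.35 and 9.82 TPM). Below them stood PHF2 at 6.31 ± 0.419 TPM, JHDM1D at 1.38 ± 0.200 TPM and KDM4D at 0.456 ± 0.0672 TPM, with no overlap. KDM4D was thus the lowest of the 10 in both lines, and KDM4E, its close relative, had no count in any library but 1 of TMD8 with DMSO.

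**Figure D1:**
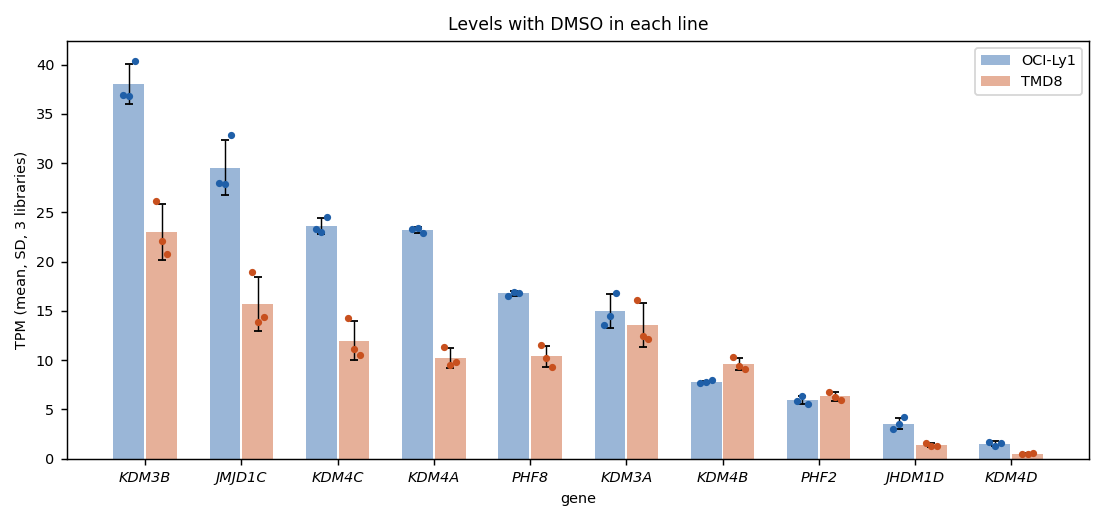
TPM of the 10 genes with DMSO in OCI-Ly1 (blue) and TMD8 (orange); bars are means, error bars the SD and points the 3 libraries. KDM3B is the highest bar in each line (38.0 and 23.0 TPM) and KDM4D the lowest (1.497 and 0.456 TPM).

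At 500 nM the top of the order changed in both lines. JMJD1C stood first, at 47.1 ± 0.232 TPM in OCI-Ly1 and 18.9 ± 1.31 TPM in TMD8, and its libraries lay above all those of KDM3B, at 36.3 ± 1.17 and 16.4 ± 0.897 TPM. PHF2 passed KDM4B in OCI-Ly1, with 11.03 ± 0.661 TPM against 9.11 ± 0.141 TPM. The 10 genes summed to 165 ± 7.54 TPM with DMSO, 172 ± 3.62 TPM at 150 nM and 222 ± 2.92 TPM at 500 nM in OCI-Ly1, and to 103 ± 12.9, 97.8 ± 3.58 and 96.5 ± 6.40 TPM in TMD8. The TMD8 sums overlap between doses although most of the 10 genes were called higher on the count scale. TPM is a share of a fixed total, and in TMD8 the 10 genes with the highest TPM held 54.3% to 62.1% of it with DMSO and 71.2% to 74.3% at 500 nM. In OCI-Ly1 they held 17.5% to 17.8% with DMSO and 22.9% to 24.7% at 500 nM. Changes with dose were therefore tested on counts, given below as normalised read counts (CPM, read counts scaled to library size with TMM factors within a line).

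At 150 nM in OCI-Ly1 none of the 10 genes was called, a call being an adjusted p under 0.05 in edgeR over all tested genes. This was 0 of 10 where 0.889% of 15638 genes were called, 0.748% higher and 0.141% lower; DESeq2 called 0 of 10 as well, and at an unadjusted p under 0.05 edgeR had 1 of 10, JMJD1C. At 500 nM in OCI-Ly1, 8 genes rose and KDM3B fell, where 53.6% of all genes were called, 27.7% higher and 25.9% lower. In TMD8, 5 genes rose at 150 nM (44.2% of 15363 genes called, 19.2% higher and 25% lower), with 1 still higher on log2(TPM + 1). At 500 nM in TMD8, 7 rose and KDM4D fell (60.7% called, 29.9% higher and 30.7% lower), whereas on log2(TPM + 1) 1 was higher and 3 were lower, and KDM4B and PHF2 changed sign without passing the threshold. On that scale the median of all TMD8 genes stood at -0.22 and that of the 10 genes at -0.02. There 1751 of 15363 genes were called higher and 7581 lower. With each library centred on its median gene, 7 of the 10 were again higher, and the 1 lower gene was KDM3B in place of KDM4D. The median log2 fold change of the 10 on counts was 0.39 in OCI-Ly1 and 0.35 in TMD8 at 500 nM, against -0.0033 and 0.041 over all genes tested. No change of the 10 against DMSO reached 1 on the log2 scale with TMM. Libraries of 500 nM and DMSO did not overlap for 10 of the 10 genes in OCI-Ly1 (60.7% of all genes) and for 8 in TMD8 (66.4%). At 150 nM this held for 1 gene in OCI-Ly1 (14% of all genes) and 5 in TMD8 (51.4%). On TMM-scaled counts, 6 genes rose in both lines at 500 nM: KDM3A, JMJD1C, KDM4A, KDM4C, PHF2 and JHDM1D. Of the 14483 genes tested in both lines, 14.1% were called higher in both and 13.7% lower in both.

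**Figure D2:**
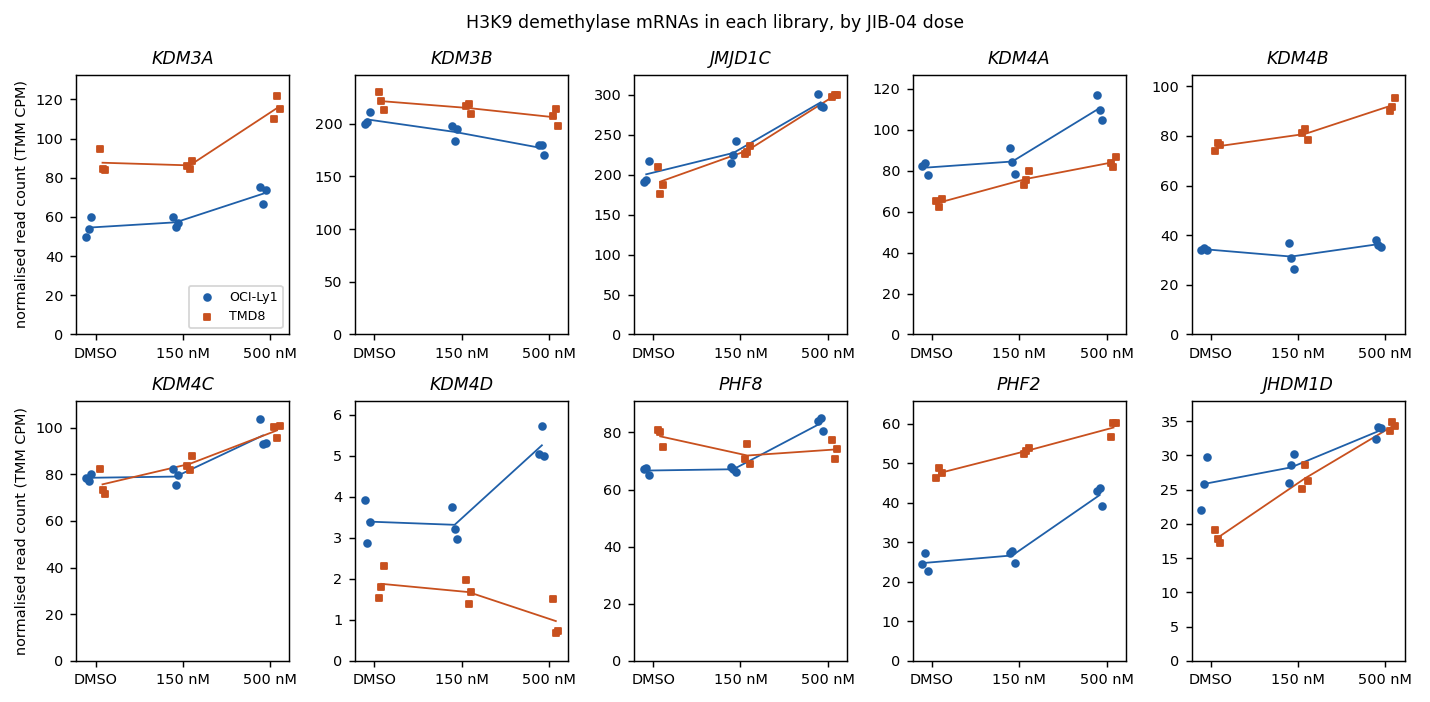
Normalised read count (CPM, TMM within each line) of the 10 genes in every library, by dose; circles are OCI-Ly1, squares TMD8, and lines join the means of 3 libraries. JHDM1D in TMD8 steps up at each dose on this scale, PHF2 in OCI-Ly1 steps up at 500 nM only, and KDM4D goes opposite ways in the 2 lines at 500 nM.

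Of the KDM3 family, KDM3A, which acts in hypoxic gene expression and spermatogenesis, rose at 500 nM in both lines. Its OCI-Ly1 libraries had 49.96, 53.9 and 59.8 CPM with DMSO, 60.2, 54.9 and 56.8 CPM at 150 nM, and 75.3, 66.7 and 73.6 CPM at 500 nM. Its TMD8 libraries had 94.7, 84.3 and 84.1 CPM with DMSO, 85.8, 84.6 and 88.6 CPM at 150 nM, and 110, 122 and 115 CPM at 500 nM. The DMSO and 150 nM libraries overlapped in each line and the 500 nM libraries stood above both. The log2 fold change at 500 nM was 0.40 in each line, with SE 0.07 and adjusted p = 0.000156 for OCI-Ly1 and SE 0.06 and adjusted p = 5.76e-06 for TMD8. On log2(TPM + 1) the TMD8 value was 0.01 and not called (adjusted p = 0.92). The 2 changes differed by 0.03 on the log2 scale (95% interval -0.16 to 0.22).

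KDM3B, a broadly expressed H3K9 demethylase, was the only one of the 10 to be called lower in OCI-Ly1. Its libraries there had 200, 202 and 211 CPM with DMSO, 198, 184 and 195 CPM at 150 nM, and 180, 180 and 171 CPM at 500 nM. The 3 groups did not overlap, although the step at 150 nM was not called (log2 fold change -0.09, adjusted p = 0.606). Against DMSO, 500 nM gave a log2 fold change of -0.21 (SE 0.05, adjusted p = 0.00243), and -0.07 on log2(TPM + 1) (adjusted p = 0.361). In TMD8 the libraries had 230, 222 and 213 CPM with DMSO, 217, 219 and 209 CPM at 150 nM, and 207, 214 and 198 CPM at 500 nM. The groups overlapped, and the value at 500 nM, -0.10, missed the threshold (adjusted p = 0.0712). It passed on log2(TPM + 1), at -0.46 (adjusted p = 0.000839), and without DMSO replicate 3, at -0.13 (adjusted p = 0.0445). The changes of the 2 lines differed by -0.07 (95% interval -0.22 to 0.08).

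JMJD1C, the third KDM3-type protein, whose own demethylase activity is disputed, rose in both lines at 500 nM. The OCI-Ly1 libraries had 191, 193 and 217 CPM with DMSO, 215, 225 and 242 CPM at 150 nM, and 301, 286 and 285 CPM at 500 nM. The TMD8 libraries had 210, 176 and 187 CPM with DMSO, 226, 229 and 236 CPM at 150 nM, and 297, 300 and 300 CPM at 500 nM. In TMD8 the 3 groups did not overlap, while in OCI-Ly1 the DMSO and 150 nM groups did. JMJD1C at 500 nM had a log2 fold change of 0.54 in OCI-Ly1 (SE 0.06, adjusted p = 6.41e-07) and 0.65 in TMD8 (SE 0.06, adjusted p = 1.69e-08). On log2(TPM + 1) the TMD8 value was 0.26 (adjusted p = 0.0543). At 150 nM the TMM-scaled counts of JMJD1C gave 0.27 in TMD8 (adjusted p = 0.000734) and, not called, 0.18 in OCI-Ly1 (adjusted p = 0.243). The TMD8 value at 150 nM was 0.11 and not called on log2(TPM + 1) (adjusted p = 0.474). The overlapping antisense gene JMJD1C-AS1 was called higher in TMD8 at 500 nM (log2 fold change 0.94, adjusted p = 0.0211), at a mean of 0.644 CPM with DMSO in the joint scaling of the lines. The counting is not stated to use strand, so reads of the pair cannot be told apart, but the partner is a small fraction of the counts of JMJD1C.

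The KDM4 family demethylates trimethylated H3K9, and KDM4A, KDM4B and KDM4C also act on H3K36. KDM4A rose in both lines at 500 nM. The OCI-Ly1 libraries had 82.4, 83.9 and 78.1 CPM with DMSO, 91.1, 84.2 and 78.2 CPM at 150 nM, and 117, 110 and 105 CPM at 500 nM. The TMD8 libraries had 64.9, 62.3 and 65.9 CPM with DMSO, 72.8, 75.4 and 79.7 CPM at 150 nM, and 83.9, 81.8 and 86.7 CPM at 500 nM. The lower dose was thus above DMSO without overlap in TMD8 and overlapped it in OCI-Ly1. At 150 nM the log2 fold change was 0.24 in TMD8 (adjusted p = 0.000943), but 0.08 on log2(TPM + 1) (adjusted p = 0.583). In OCI-Ly1 it was 0.05 (adjusted p = 0.827). The difference between these changes, -0.18 (adjusted p = 0.137), was not called. It passed with library size only (-0.26, adjusted p = 0.0262) and without OCI-Ly1 150 nM replicate 1 (-0.24, adjusted p = 0.0329). For 500 nM the log2 fold change was 0.44 in OCI-Ly1 (SE 0.06, adjusted p = 1.64e-05) and 0.38 in TMD8 (SE 0.05, adjusted p = 4.14e-06), the latter 0.0099 and not called on log2(TPM + 1) (adjusted p = 0.937). The antisense gene KDM4A-AS1 was called lower in OCI-Ly1, at -0.46 (SE 0.11, adjusted p = 0.00215), from 10.4 ± 0.871 to 7.51 ± 0.234 CPM. In TMD8 it was at 0.17 (adjusted p = 0.3), and whether reads of this pair were separated by strand is not stated either.

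KDM4B passed the test at 500 nM in TMD8 and not in OCI-Ly1. Its TMD8 libraries had 73.7, 77.3 and 76.5 CPM with DMSO, 81.1, 82.9 and 78.4 CPM at 150 nM, and 90.0, 91.8 and 95.3 CPM at 500 nM, with no overlap between any groups. KDM4B rose there by 0.28 on the log2 scale at 500 nM (SE 0.05, adjusted p = 5.78e-05), a value that turned to -0.08 on log2(TPM + 1) (adjusted p = 0.467). The OCI-Ly1 libraries had 34.2, 35.0 and 33.9 CPM with DMSO, 36.9, 30.8 and 26.4 CPM at 150 nM, and 38.1, 36.0 and 35.1 CPM at 500 nM. The 150 nM libraries spread around those with DMSO, and the value at 500 nM was 0.08 (95% interval -0.11 to 0.28, adjusted p = 0.453). The difference between the lines' changes at 500 nM, -0.17 (95% interval -0.39 to 0.05), was not called, so the 2 lines are not shown to differ. At 150 nM the TMD8 value was 0.09 (adjusted p = 0.137), called without 150 nM replicate 3 (0.14, adjusted p = 0.0422).

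KDM4C rose at 500 nM in both lines. The OCI-Ly1 libraries had 78.4, 77.1 and 80.1 CPM with DMSO, 82.2, 75.4 and 79.6 CPM at 150 nM, and 104, 93.1 and 93.5 CPM at 500 nM. The TMD8 libraries had 82.3, 73.2 and 71.6 CPM with DMSO, 83.8, 81.7 and 88.0 CPM at 150 nM, and 100, 95.6 and 101 CPM at 500 nM. The first TMD8 library with DMSO reached into the 150 nM group, and no library of either line reached the 500 nM group. In log2 terms KDM4C changed by 0.30 in OCI-Ly1 (SE 0.06, adjusted p = 0.000366) and by 0.39 in TMD8 (SE 0.06, adjusted p = 1.12e-05), the latter 0.019 and not called on log2(TPM + 1). The TMD8 call at 150 nM, 0.16 (adjusted p = 0.0258), was lost without DMSO replicate 2 (adjusted p = 0.101), without DMSO replicate 3 (0.133) or without 150 nM replicate 3 (0.0511).

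KDM4D, which lacks the PHD and tudor domains of the longer KDM4 enzymes, was low, so its counts are given. The OCI-Ly1 libraries had 3.93, 2.88 and 3.39 CPM with DMSO, 3.75, 3.22 and 2.98 CPM at 150 nM, and 5.04, 5.73 and 5.01 CPM at 500 nM. These rested on 49 to 99 counts per library up to 150 nM and on 148 or more at 500 nM, and the highest dose stood apart. The TMD8 libraries had 1.52, 1.79 and 2.31 CPM with DMSO (24, 32 and 46 counts), 1.96, 1.38 and 1.69 CPM at 150 nM (27, 20 and 34 counts), and 1.52, 0.673 and 0.716 CPM at 500 nM (23, 9 and 7 counts). The first library at 500 nM all but touched the lowest with DMSO, and the other two lay well below. KDM4D changed at 500 nM by 0.61 in OCI-Ly1 on the log2 scale (SE 0.16, adjusted p = 0.00387) and -0.91 in TMD8 (SE 0.31, adjusted p = 0.0172). The TMD8 call was lost without DMSO replicate 3 (-0.72, adjusted p = 0.0828), 500 nM replicate 2 (-0.68, adjusted p = 0.1) or 500 nM replicate 3 (-0.76, adjusted p = 0.0676). Without 500 nM replicate 1 the value was -1.45, and on centred TPM it was -0.05 (adjusted p = 0.665). The changes of the lines differed by 1.55 (SE 0.34, adjusted p = 0.000557), a difference that kept its call in each of the 19 alternatives run for it, from 0.36 to 2.09.

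**Figure D3:**
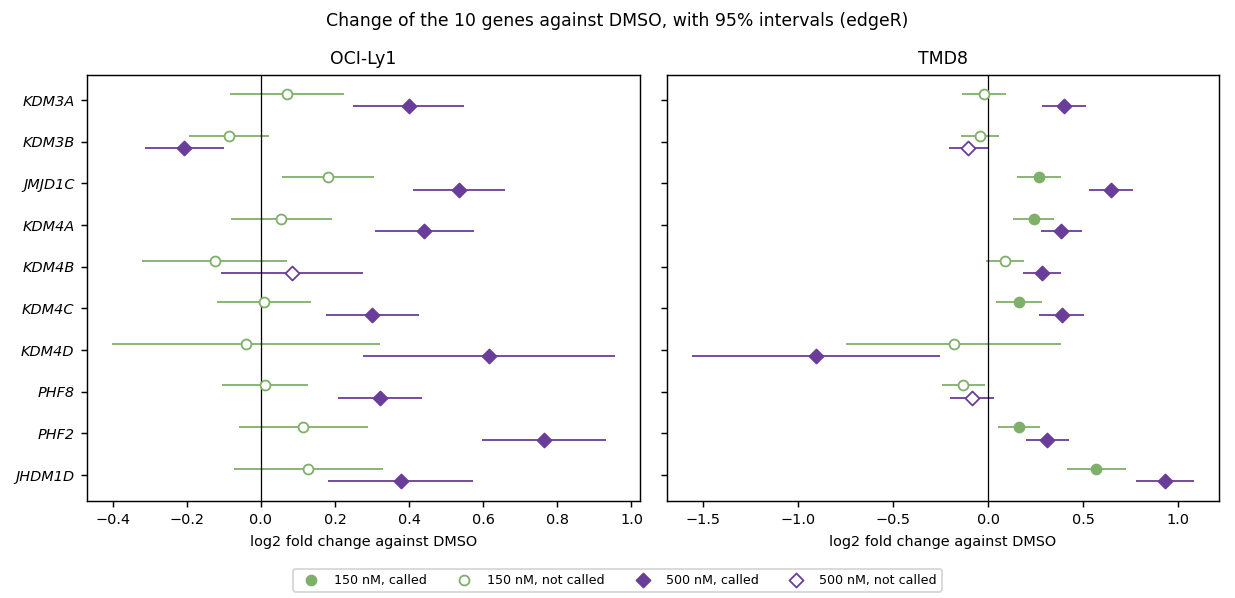
log2 fold change against DMSO (horizontal axis) of each gene at 150 nM (circles) and 500 nM (diamonds) in edgeR, with 95% intervals; filled symbols passed an adjusted p of 0.05. No OCI-Ly1 symbol is filled at 150 nM, 5 TMD8 symbols are, and the intervals of KDM4D are the widest; in TMD8, KDM4B and PHF2 at 500 nM change sign on log2(TPM + 1).

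PHF8 demethylates H3K9 at active promoters and is mutated in X-linked intellectual disability. Its OCI-Ly1 libraries had 67.2, 67.7 and 65.0 CPM with DMSO, 67.9, 67.2 and 66.2 CPM at 150 nM, and 84.1, 84.9 and 80.6 CPM at 500 nM. The TMD8 libraries had 80.7, 80.2 and 75.0 CPM with DMSO, 70.7, 76.1 and 68.95 CPM at 150 nM, and 77.4, 70.5 and 74.1 CPM at 500 nM. The OCI-Ly1 libraries at 500 nM stood apart above the other 6, while the TMD8 groups overlapped. PHF8 at 500 nM was at 0.32 on the log2 scale in OCI-Ly1 (SE 0.05, adjusted p = 7.78e-05) and -0.09 in TMD8 (SE 0.06, 95% interval -0.20 to 0.03, adjusted p = 0.195). On log2(TPM + 1) the TMD8 value was -0.34 and called (adjusted p = 0.00522). At 150 nM the TMD8 value of PHF8 on TMM-scaled counts was -0.13 (adjusted p = 0.0637), called without DMSO replicate 3 (-0.17, adjusted p = 0.0391) or 150 nM replicate 2 (-0.17, adjusted p = 0.0346). The difference between the lines, 0.44 (SE 0.08, adjusted p = 5.54e-05), was itself called.

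PHF2, a relative of PHF8 known to act with the DNA-binding protein ARID5B, had the largest called rise of the 10 in OCI-Ly1. The libraries there had 24.5, 27.2 and 22.7 CPM with DMSO, 27.3, 27.9 and 24.8 CPM at 150 nM, and 42.9, 43.8 and 39.2 CPM at 500 nM. In TMD8 they had 46.2, 48.9 and 47.5 CPM with DMSO, 52.5, 53.2 and 53.8 CPM at 150 nM, and 56.8, 60.2 and 60.3 CPM at 500 nM. In OCI-Ly1 the 150 nM libraries overlapped those with DMSO, and the 500 nM libraries stood above both. The 3 TMD8 groups lay above one another without overlap. At 150 nM the OCI-Ly1 log2 fold change was 0.11 and not called (adjusted p = 0.69). The difference between the lines' changes at 150 nM, -0.039 (SE 0.096, adjusted p = 0.829), was not called. The lines are thus not shown to differ at that dose. PHF2 changed by 0.76 on the log2 scale at 500 nM in OCI-Ly1 (SE 0.08, adjusted p = 3.61e-07) and 0.31 in TMD8 (SE 0.05, adjusted p = 6.47e-05), the latter -0.05 on log2(TPM + 1). The difference between the lines at 500 nM was 0.48 (SE 0.09, adjusted p = 0.000159). The TMD8 call at 150 nM, 0.16 (adjusted p = 0.0194), was lost without 150 nM replicate 2 (adjusted p = 0.0571).

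JHDM1D, also called KDM7A, removes lower methylation states of H3K9 and H3K27 and had the largest called rise in TMD8. The TMD8 libraries had 19.1, 17.7 and 17.2 CPM with DMSO, 25.0, 28.7 and 26.3 CPM at 150 nM, and 33.5, 34.9 and 34.3 CPM at 500 nM. The OCI-Ly1 libraries had 22.0, 25.8 and 29.7 CPM with DMSO, 26.0, 28.6 and 30.2 CPM at 150 nM, and 32.4, 34.2 and 34.02 CPM at 500 nM. TMD8 stepped up at each dose with no overlap, while the OCI-Ly1 libraries at 150 nM lay within or just above the range of those with DMSO. The TMD8 log2 fold change was 0.57 at 150 nM (SE 0.07, adjusted p = 7.25e-06) and 0.93 at 500 nM (SE 0.07, adjusted p = 5.01e-09; 0.34 on log2(TPM + 1)). In OCI-Ly1 it was 0.13 at 150 nM (adjusted p = 0.698) and 0.38 at 500 nM (SE 0.09, adjusted p = 0.00243), the latter 0.20 on centred TPM (adjusted p = 0.1). The OCI-Ly1 change minus the TMD8 change was -0.43 at 150 nM (SE 0.13, adjusted p = 0.0136) and -0.52 at 500 nM (SE 0.13, adjusted p = 0.00131), the latter 0.079 on log2(TPM + 1). The difference at 150 nM lost its call without OCI-Ly1 DMSO replicate 3 (-0.32, adjusted p = 0.0594) and on centred TPM (-0.23, adjusted p = 0.117). The difference was thus called at both doses for JHDM1D, and at 500 nM only for KDM4D, PHF8 and PHF2. At 150 nM this was 1 of 10 genes where 23.3% of 16604 were called (15% higher and 8.33% lower), and at 500 nM 4 of 10 where 46.4% were called (28.2% and 18.1%). On log2(TPM + 1) the latter count was 8, with KDM3A at 0.50 and KDM4A at 0.55 among those added. On that scale 9104 of 16604 genes were called higher and 1112 lower, and the median of all genes was 0.38.

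The 2 doses were also compared with each other, and their libraries did not overlap for 9 of the 10 genes in OCI-Ly1 (55.6% of all genes) and 7 in TMD8 (44.8%). In OCI-Ly1, 8 of the 10 were higher at 500 nM than at 150 nM (46.2% of all genes called, 25.1% higher and 21.1% lower), the largest being KDM4D at 0.66 (SE 0.16) and PHF2 at 0.65 (SE 0.08). KDM3B at -0.12 (adjusted p = 0.0624) and KDM4B at 0.21 (adjusted p = 0.0699) were not called, but KDM3B passed in DESeq2 (adjusted p = 0.0347) and KDM4B on log2(TPM + 1) (adjusted p = 0.0234), with the replicate number as a block (adjusted p = 0.0299) and without 150 nM replicate 1 (0.33, adjusted p = 0.00213). KDM4C, at 0.29, lost its call on centred TPM (0.14, adjusted p = 0.0537). JHDM1D, at 0.25 (adjusted p = 0.0346), lost its call when any of 5 of the 6 libraries was left out, with adjusted p from 0.0604 to 0.14. In TMD8, 7 of the 10 were higher (28.7% of all genes called, 13.7% higher and 15% lower), among them KDM3A at 0.42 (SE 0.06), JMJD1C at 0.38 (SE 0.06) and JHDM1D at 0.36 (SE 0.07), whereas on log2(TPM + 1) none was called higher and KDM4D was lower. KDM4A, at 0.14 (adjusted p = 0.0441), and PHF2, at 0.15 (adjusted p = 0.0432), were not called by DESeq2 (adjusted p = 0.145 and 0.164) and lost their calls when any of 5 and any of the 6 libraries was left out. KDM4D, at -0.73 (adjusted p = 0.102), passed without 500 nM replicate 1 (-1.27, adjusted p = 0.0206). KDM4B was at 0.19 (SE 0.05, adjusted p = 0.00579), and 0.13 on centred TPM (adjusted p = 0.0569). KDM3A and KDM4B in TMD8 therefore had their called step between the 2 doses. JMJD1C, KDM4A, KDM4C, PHF2 and JHDM1D had called steps both from DMSO to 150 nM and from 150 to 500 nM on TMM-scaled counts. Of these, KDM4A, KDM4C and PHF2 lost a call at 1 step or both when single libraries were left out.

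**Figure D4:**
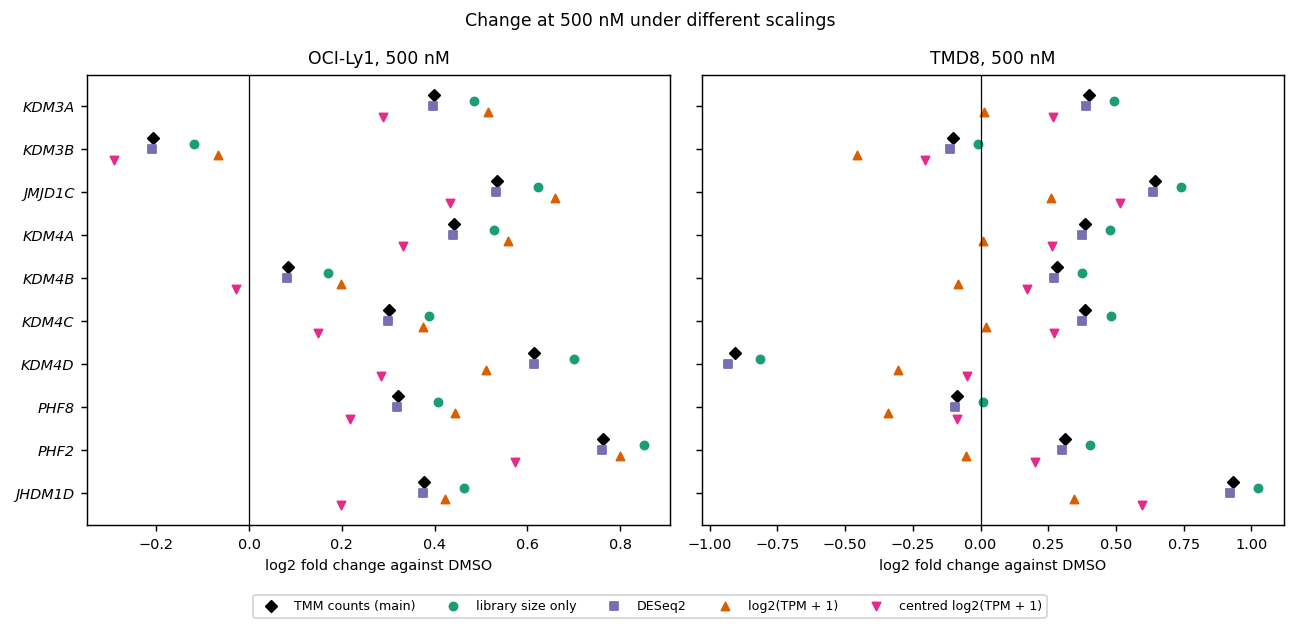
log2 fold change at 500 nM against DMSO of each gene under 5 ways of scaling; black diamonds are the TMM counts used in the text. In OCI-Ly1 only KDM4B changes sign between scalings (centred TPM), whereas in TMD8 the upright triangles, log2(TPM + 1), lie left of the others for every gene but KDM4D and put KDM4B and PHF2 below 0, and PHF8 stands just above 0 with library size only.

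With DMSO, 8 of the 10 differed between the lines, 3 higher and 5 lower in OCI-Ly1, where 76.7% of all genes were called, 37.8% higher and 39% lower. The same 8 were those whose libraries did not overlap (76.4% of all genes). The levels here are CPM scaled jointly over the 18 libraries. KDM4B was at 33.1 ± 0.509 CPM in OCI-Ly1 and 79.4 ± 1.37 CPM in TMD8, and PHF2 at 23.9 ± 2.20 and 49.8 ± 1.10 CPM. The log2 difference, OCI-Ly1 minus TMD8, was -1.26 for KDM4B (SE 0.08, adjusted p = 1.01e-14) and -1.07 for PHF2 (SE 0.07, adjusted p = 5.24e-14), and both stayed below 0 under each scaling tried, PHF2 without a call on log2(TPM + 1) (-0.08, adjusted p = 0.329). KDM3A (-0.81, SE 0.07), PHF8 (-0.36, SE 0.06) and KDM3B (-0.24, SE 0.05) were also lower in OCI-Ly1 on counts, but turned to 0.14, 0.65 and 0.71 on log2(TPM + 1), where the median of all genes was at 0.61. There PHF8 (adjusted p = 7.53e-08) and KDM3B (adjusted p = 1.12e-07) were called higher in OCI-Ly1, and KDM3A was not called (adjusted p = 0.208). On centred TPM neither PHF8 (-0.074, adjusted p = 0.205) nor KDM3B (-0.017, adjusted p = 0.738) was called, and KDM3B also lost its call with library size only (-0.089, adjusted p = 0.0688). KDM4D (0.73, SE 0.22), JHDM1D (0.40, SE 0.09) and KDM4A (0.22, SE 0.06) were higher in OCI-Ly1 and stayed above 0 under each scaling, KDM4D without a call on centred TPM (0.051, adjusted p = 0.618). JMJD1C (-0.05) and KDM4C (-0.07) were not called on TMM-scaled counts or, at 0.098 and 0.084, with library size only (adjusted p = 0.106 and 0.167). Both were called higher in OCI-Ly1 on log2(TPM + 1), at 0.88 (adjusted p = 2.09e-07) and 0.94 (adjusted p = 2.12e-08), and on centred TPM, at 0.15 (adjusted p = 0.0372) and 0.21 (adjusted p = 0.00287). KDM4B and PHF2, lowest in OCI-Ly1 relative to TMD8, thus had unlike responses in that line, KDM4B not called and PHF2 at 0.76.

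The 10 genes were set beside 3 lists of related genes. Directions within a list are given on TMM-scaled counts, and the other scalings were applied to the lists after the data had been seen. Of 19 other JmjC proteins and oxygenases, 18 were tested. At 500 nM 8 rose and 1 fell in OCI-Ly1 (27.7% of all genes higher and 25.9% lower), and 8 rose and 4 fell in TMD8 (29.9% and 30.7%). These counts became 3 higher and 6 lower on centred TPM in OCI-Ly1 and 3 higher and 10 lower on log2(TPM + 1) in TMD8. Over all genes, 2902 of 15638 were higher and 6079 lower in the former, and 1751 of 15363 higher and 7581 lower in the latter. The median log2 fold changes, 0.07 and -0.01, changed sign with the scaling in each line. The H3K27 demethylase KDM6B rose by 1.81 in OCI-Ly1 (SE 0.10) and 1.04 in TMD8 (SE 0.07), the most of the list among genes called alike in both. JARID2, a Polycomb partner without demethylase activity, rose by 0.44 and 0.82. KDM6B and JARID2 kept these calls under all 5 other scalings run, whereas JMJD7, at 0.47 and 0.49, lost its call on centred TPM in OCI-Ly1 (adjusted p = 0.12) and on log2(TPM + 1) in TMD8 (adjusted p = 0.442). MINA, a ribosomal oxygenase, was called in opposite directions, at 0.17 in OCI-Ly1 (0.06 and not called on centred TPM) and -0.94 in TMD8. At 150 nM none of the 18 was called in OCI-Ly1 by edgeR or DESeq2, and 1 had an unadjusted edgeR p under 0.05, where 0.889% of all genes were called. In TMD8 5 rose and 2 fell at 150 nM, where 19.2% of all genes were called higher and 25% lower, and on log2(TPM + 1) 1 was higher and 3 were lower. On that scale 1129 of 15363 genes were called higher and 4183 lower.

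The second list held 20 writers, readers and other erasers of H3K9 methylation, all tested. At 500 nM 2 rose and 8 fell in OCI-Ly1 on TMM-scaled counts (27.7% of all genes higher and 25.9% lower). On log2(TPM + 1) 5 were higher and 5 lower, where 5739 of 15638 genes were higher and 2240 lower. In TMD8 3 rose and 14 fell (29.9% and 30.7% of all genes), with 12 to 17 lower under the other scalings. The 17 arose on log2(TPM + 1) and log2(TPM + 0.1), where 7581 and 7576 of 15363 genes were called lower. The median was -0.14 in OCI-Ly1 against -0.0033 over all genes, and 0.027 against 0.10 on log2(TPM + 1). In TMD8 it was -0.35 against 0.041, and -0.69 against -0.22 on log2(TPM + 1). It thus lay below the median of all genes in both lines on either scale, whereas the median of the 10 demethylase genes lay above it. PRDM2, a PR-domain methyltransferase gene, was the 1 gene to rise in both lines, by 0.55 and 0.92. KDM1A, the flavin-dependent demethylase LSD1, had 263 ± 12.8 CPM with DMSO and 198 ± 9.04 CPM at 500 nM in OCI-Ly1 (log2 fold change -0.41, SE 0.05). TMD8 had 75.1 ± 2.87 and 50.1 ± 1.02 CPM of it (-0.58, SE 0.06). FAM208A, a subunit of the HUSH silencing complex, fell by 0.37 and 0.43 on the log2 scale. PRDM2, KDM1A and FAM208A kept these calls under the 5 other scalings. MPHOSPH8, another HUSH subunit, was called lower in OCI-Ly1 (-0.15) and higher in TMD8 (0.22), but on log2(TPM + 1) neither was called and the TMD8 value was -0.15.

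The third list held 20 hypoxia-inducible genes, since several of the 10 are known to respond to hypoxia, and 19 were tested. At 500 nM 9 rose and 5 fell in OCI-Ly1 (27.7% of all genes higher and 25.9% lower), and 9 rose and 4 fell in TMD8 (29.9% and 30.7%). In TMD8 log2(TPM + 1) gave 6 higher and 9 lower, where 1751 of 15363 genes were higher and 7581 lower. DDIT4, an inhibitor of mTORC1 signalling, had 28.4 ± 7.03 CPM with DMSO and 209 ± 21.2 CPM at 500 nM in OCI-Ly1 (log2 fold change 2.88). Its TMD8 levels were 27.4 ± 4.44 and 133 ± 8.02 CPM (2.26). NDRG1 rose by 3.77 in OCI-Ly1, from a low 0.106 ± 0.0231 CPM, and by 2.41 in TMD8. LDHA, the lactate dehydrogenase subunit, had 908 ± 90.7 and 442 ± 12.5 CPM in OCI-Ly1 (-1.04), and 1008 ± 33.0 and 402 ± 4.79 CPM in TMD8 (-1.33). These 3 genes kept their calls under the 5 other scalings. Genes that are common markers of hypoxia were thus called in different directions in the same libraries. The glucose transporters SLC2A1 (0.23 and -0.37) and SLC2A3 (-0.51 and 1.08) were called in opposite directions in the 2 lines, SLC2A3 in OCI-Ly1 not on log2(TPM + 1) (adjusted p = 0.0529). At 150 nM 4 of the 19 fell in OCI-Ly1, where 0.141% of all genes were called lower, against 1 on log2(TPM + 1), and 7 rose and 7 fell in TMD8, where 19.2% were higher and 25% lower.

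The genes with the most similar dose pattern were sought for the member with the highest mean TPM in each family. Likeness was the root mean square difference of log2 CPM, each relative to DMSO of its line, over the 12 treated libraries and 14482 genes. KDM3B was closest to GIGYF2 (0.0490), GNB2L1 (0.0497) and RPS15 (0.0519), against a median of 0.350 over all genes. KDM4C was closest to TAF1 (0.0401), VPS13D (0.0409) and WDR70 (0.0576), with a median of 0.433. TAF1, a subunit of the general transcription factor TFIID, had mean OCI-Ly1 changes of -0.02 (150 nM) and 0.27 (500 nM), beside 0.0089 and 0.30 for KDM4C. The TMD8 changes were 0.17 and 0.38 for TAF1, beside 0.16 and 0.39. PHF8 was closest to ZNF324 (0.0519), VOPP1 (0.0541) and STAMBP (0.0600), with a median of 0.385. These values are descriptions over libraries that share the DMSO reference of their line.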

How the data were processed

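Per the labels' protocols, RNA was purified on columns, depleted of ribosomal RNA, and sequenced as paired-end 101-cycle libraries in technical triplicate. The authors deposited, for each line, a table of estimated counts and a table of TPM. The submitters' processing notes name kallisto 0.46.0, R 4.3.1, DESeq2 1.40.2 and hg19, with no role or order; the annotation and the step from transcripts to genes are not given in the sources used here. The tables carry no coordinates, and the printed ones are RefSeq's on GRCh38.p14.

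Estimated counts were rounded and tested with the quasi-likelihood test of edgeR 4.0.16 (R 4.3.3), with TMM scaling and the low-count filter by group (minimum count 10). The 9 libraries of a line were fitted together, and all 18 for differences between lines. P-values were adjusted over all tested genes by Benjamini-Hochberg (15638, 15363 and 16604 genes), and a call was an adjusted p under 0.05. All 10 genes passed the filter in every fit. The common biological coefficient of variation was 6.84% in OCI-Ly1 and 5.30% in TMD8. Totals were 9550092 to 32651115 counts; no molecular identifiers are described. Replicate pairs differed beyond sampling noise (chi-square per degree of freedom 1.62 to 10.9), so each library was kept. Deposited TPM was used for levels and in limma 3.58.1 alternatives with pseudocounts of 1 and 0.1; DESeq2 1.42.0, library-size scaling, no filter, a replicate block and leaving out each library were further alternatives.

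The genes and lists were chosen with earlier results of these data known. All 10 genes are named; from each list at most 3 genes are named, those with the largest change, taken as the smaller of the absolute log2 fold changes of the 2 lines, among genes called in the same direction in both lines at 500 nM, plus all called in opposite directions. On simulated data with known changes, the OCI-Ly1 fit at 500 nM recovered 75.5% of changes of 0.5 and 81% of changes of 1 (log2). It made 14 false calls among 15638 genes, beside 74 and 81 recovered changes. The TMD8 fit recovered 62% and 90.8%, with 11 false calls among 15363 genes, beside 62 and 89 recovered changes. The simulation changed 100 genes at each size, equally up and down. The percentages leave out changed genes that the low-count filter removed, so they can exceed the recovered counts. In the data 53.6% and 60.7% of genes were called at 500 nM, so these rates need not carry over. The result of 1 marker gene is not reported here.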

Additional observations from a re-analysis of the deposited data

Results flagged for a closer look

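A test of the difference between the lines' changes against DMSO (edgeR, OCI-Ly1 minus TMD8, 3 libraries in each group) picked out 4 of the 10 genes. At 500 nM 4 of the 10 were called, where 46.4% of 16604 genes were, and at 150 nM 1 of the 10, where 23.3% were. Both counts were below the share over all genes. JHDM1D differed by -0.43 at 150 nM (adjusted p = 0.0136) and by -0.52 at 500 nM (adjusted p = 0.00131), being called higher at both doses in TMD8 and at 500 nM alone in OCI-Ly1. KDM4D differed by 1.55 at 500 nM (adjusted p = 0.000557), with 7 to 46 counts behind each TMD8 library of the comparison. PHF8 differed by 0.44 (adjusted p = 5.54e-05) and PHF2 by 0.48 (adjusted p = 0.000159) at 500 nM. Line and medium cannot be told apart in these differences.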

How the results depend on the processing

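Counts of called genes among the 10 held within 1.5 times under DESeq2, no filter, the replicate block and fits of the compared groups alone. On log2(TPM + 1) and log2(TPM + 0.1) the count fell from 5 to 1 and 1 in TMD8 at 150 nM against DMSO, from 8 to 4 and 4 at 500 nM against DMSO, and from 7 to 1 and 2 at 500 against 150 nM; with centred TPM the first was 3 and the last 4. The difference between lines went from 1 gene to 0 on each TPM scale at 150 nM and to 3 with library size only, and from 4 to 8 and 8 on the uncentred TPM scales at 500 nM. On the latter scales 9104 and 8824 of 16604 genes were called higher for the difference at 500 nM, and 1112 and 949 lower. Leaving out 1 library gave 0 to 3 genes for that difference at 150 nM, 0 without OCI-Ly1 DMSO replicate 3 and 3 without OCI-Ly1 150 nM replicate 1. At 500 nM against DMSO the share of higher calls among all called genes was 51.6% in OCI-Ly1 and 49.3% in TMD8, 64% and 59.4% with library size only, 71.9% and 18.8% on log2(TPM + 1), and 32.3% and 48.3% on centred TPM. The cause of these shifts was not tested.

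Same-numbered deviations had correlations of -0.0462 to 0.146 for OCI-Ly1 and of -0.0545 to 0.141 for TMD8. In each line 2 of 9 such pairs were over 0.1. Differently numbered pairs ran from -0.173 to 0.0419 for OCI-Ly1, and for TMD8 from -0.190 to 0.105. The same-numbered pairs over 0.1 all joined DMSO to 150 nM and lay above every differently numbered pair of their line. For replicate 1 they were 0.123 (OCI-Ly1) and 0.125 (TMD8), and for replicate 3, 0.146 and 0.141. Replicate 2 of these groups had 0.0109 and -0.0545. Whether DMSO and 150 nM libraries were made in pairs was not tested. With the replicate number as a block the counts were 0, 9 and 9 in OCI-Ly1 (150 nM, 500 nM, and 500 against 150 nM), 5, 8 and 7 in TMD8, and 8, 1 and 4 for the differences between lines.

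Of 90 values under all alternatives, 77 changes of sign arose, 60 in values that were not called and 17 in called ones, the latter all on the uncentred TPM scales; leaving out 1 library gave 19, none in a called value. In OCI-Ly1, 150 nM against DMSO, values of opposite sign were KDM4D at 0.0024 (on log2(TPM + 0.1)), PHF8 at -0.014 (on centred TPM). KDM4D ranged from -0.14 to 0.080, KDM4C ranged from -0.017 to 0.046 and PHF8 ranged from -0.0021 to 0.024 with 1 library left out. In OCI-Ly1, 500 nM against DMSO, values of opposite sign were KDM4B at -0.028 (on centred TPM). In TMD8, 150 nM against DMSO, values of opposite sign were KDM3A at 0.067 and KDM3B at 0.042 (with library size only), KDM4B at -0.057 (on log2(TPM + 1)), KDM4B at -0.062 (on log2(TPM + 0.1)), KDM4D at 0.0082 (on centred TPM), KDM3A at 0.011 (with only the 2 compared groups). KDM3A ranged from -0.051 to 0.036, KDM4D ranged from -0.30 to 0.0063 and KDM3B ranged from -0.072 to 0.0063 with 1 library left out. In TMD8, 500 nM against DMSO, values of opposite sign were PHF8 at 0.0081 (with library size only), KDM4B at -0.082 and PHF2 at -0.053 (on log2(TPM + 1)), KDM4B at -0.090 and PHF2 at -0.061 (on log2(TPM + 0.1)). In TMD8, 500 against 150 nM, values of opposite sign were KDM4A at -0.066, KDM4B at -0.025, PHF8 at -0.11 and PHF2 at -0.059 (on log2(TPM + 1)), KDM4A at -0.072, KDM4B at -0.027, PHF8 at -0.12 and PHF2 at -0.067 (on log2(TPM + 0.1)). PHF8 ranged from -0.0047 to 0.085 with 1 library left out. For the lines with DMSO, values of opposite sign were JMJD1C at 0.098 and KDM4C at 0.084 (with library size only), KDM3A at 0.14, KDM3B at 0.71, JMJD1C at 0.88, KDM4C at 0.94 and PHF8 at 0.65 (on log2(TPM + 1)), KDM3A at 0.15, KDM3B at 0.73, JMJD1C at 0.92, KDM4C at 0.99 and PHF8 at 0.69 (on log2(TPM + 0.1)), JMJD1C at 0.15 and KDM4C at 0.21 (on centred TPM). JMJD1C ranged from -0.11 to 0.024 and KDM4C ranged from -0.11 to 0.0013 with 1 library left out. For the line difference at 150 nM, values of opposite sign were KDM3B at 0.14, JMJD1C at 0.094, KDM4A at 0.0029, KDM4C at 0.029 and PHF2 at 0.11 (on log2(TPM + 1)), KDM3B at 0.14, JMJD1C at 0.094, KDM4C at 0.029 and PHF2 at 0.13 (on log2(TPM + 0.1)), KDM3B at 0.022, KDM4D at -0.026 and PHF2 at 0.00054 (on centred TPM). PHF2 ranged from -0.10 to 0.037, KDM3B ranged from -0.068 to 0.00076 and KDM4D ranged from -0.036 to 0.27 with 1 library left out. For the line difference at 500 nM, values of opposite sign were KDM3A at -0.0075 (with library size only), KDM3B at 0.39, JMJD1C at 0.40, KDM4B at 0.28, KDM4C at 0.36 and JHDM1D at 0.079 (on log2(TPM + 1)), KDM3B at 0.41, JMJD1C at 0.40, KDM4B at 0.31 and KDM4C at 0.37 (on log2(TPM + 0.1)). KDM3A ranged from -0.030 to 0.10 with 1 library left out.

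Depth limits KDM4D most, with 7 to 46 counts per TMD8 library against DMSO; intervals cover counting and library error only.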
